A study of Mus musculus with 12 samples.

Results

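The Hox genes were taken as all probe sets listed with 1 gene whose symbol is Hoxa, Hoxb, Hoxc or Hoxd followed by a number. This gave 48 probe sets of 33 genes among the 45101 probe sets of the array, of which 34958 are listed with 1 gene. The Hoxa cluster had 16 probe sets of 9 genes, the Hoxb cluster 11 of 9 genes, the Hoxc cluster 11 of 7 genes and the Hoxd cluster 10 of 8 genes. Sets listed with 2 Hox genes stayed out of these counts and are described separately.

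Total RNA of 12 mouse samples was measured on Affymetrix arrays, in a study of genes downstream of the homeobox gene Dlx5 in the early ear. Otic vesicles of wild-type and of Dlx5-null embryos were sampled at embryonic day 10 (E10) and at E10.5, with 2 arrays for each genotype and stage. Every vesicle sample pooled 4 to 8 vesicles, and dispase at 1 mg/ml was used to help strip off attached mesenchyme. The other 4 samples were cultures of 2B1, a cell line derived from the otic vesicle, of which 2 received Dlx5 in a GFP vector and 2 the vector with GFP alone. All 2B1 cultures grew at 32 °C with gamma-interferon and were then held after transfection for 4 days at 37 °C without it. The labels name no strain, no allele of the null and no number of clones behind 2B1. The 2 replicates of a group are separate pools or independent cultures, and this number limits the precision.

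Hox genes encode homeodomain transcription factors that lie in 4 clusters, with members of the same number (paralogues) descended from 1 ancestral gene. Along the body axis, low-numbered genes are switched on early and as far forward as the hindbrain, and high-numbered genes later and towards the tail. The otic vesicle lies beside the hindbrain, where the genes at the low-numbered end of the clusters help to set segment identity. Retinoic acid, Cdx factors and the Polycomb and Trithorax chromatin complexes control the clusters, and Pbx, Meis and Pknox proteins bind DNA together with Hox proteins. Cultured fibroblasts are known to keep much of the Hox pattern of the place they came from.

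Several features of the arrays bear on these values. Mean log2 values were 6.10 to 6.11 on the vesicle arrays and 5.76 to 5.82 on the 2B1 arrays, with maxima of 14.9 and 15.4, so both sets appear to have been normalized apart. The 2B1 and vesicle samples were therefore compared only by the percentile rank of a probe set within its own array (0 the dimmest, 100 the brightest), as a description with no test. The cell line and the vesicles also differ in culture, transfection and dissection, which cannot be told apart from the difference between them. The interquartile range of log2 values was 2.84 and 2.88 on the first replicates at E10 (wild-type and null), 3.01 on the second null replicate at E10.5, and 3.28 to 3.32 on the other 5 vesicle arrays. In 2B1 it was 2.70 on the first empty-vector replicate and 3.0 to 3.08 on the others. As a check of the labels, the Dlx5 probe set read 6.11 to 6.30 in the 4 wild-type vesicle arrays and 7.27 to 8.02 in the 4 null ones. Those groups are called labelled-null below, since the set was higher in them and the position of its probes was not examined. In 2B1 the same set read 5.14 and 4.80 in the cultures labelled as given Dlx5 and 4.66 and 4.79 with the empty vector (mean ranks 42.5 and 36.6), so it hardly differed. Whether its probes lie in the transfected sequence was not examined. Eif2s3y, a gene of the Y chromosome, read 7.04 and 3.96 on the wild-type E10 arrays and 6.50 and 6.17 on the labelled-null E10 arrays. On the E10.5 arrays it read 3.21 and 3.45 for wild-type pools and 4.82 and 5.04 for labelled-null pools. The level of this Y-linked gene thus differed among pools of both genotypes and stages. In a limma fit over both stages with its level as a covariate, 0 Hox genes passed between genotypes at an adjusted p under 0.05. The part of the sex makeup of the pools in the other results was not tested.

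In the 8 vesicle arrays the Hox probe sets were mostly dim, and in 2B1 cells many of them ranked far higher. The median of their mean percentile ranks was 30.9 in vesicles and 68.5 in 2B1, against 56.3 and 56.1 over all 34958 probe sets. In vesicles 1 of 48 Hox sets had a mean rank above the 75th percentile, and in 2B1 17 of 48 did (35.4%, against 28.9% of all sets). A set was counted as apart where the 4 ranks in 2B1 and the 8 ranks in vesicles did not overlap and the means differed by at least 10 points. By that rule 26 of 48 Hox sets (54.2%) ranked higher in 2B1, against 16.3% of all sets, and 1 (2.08%) ranked lower, against 16.2% of all sets. The other 21 were not apart. Of the 33 genes, 20 had at least 1 higher set and 12 had no set apart, and the remaining gene, Hoxd8, had the lower one.

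**Figure D1:**
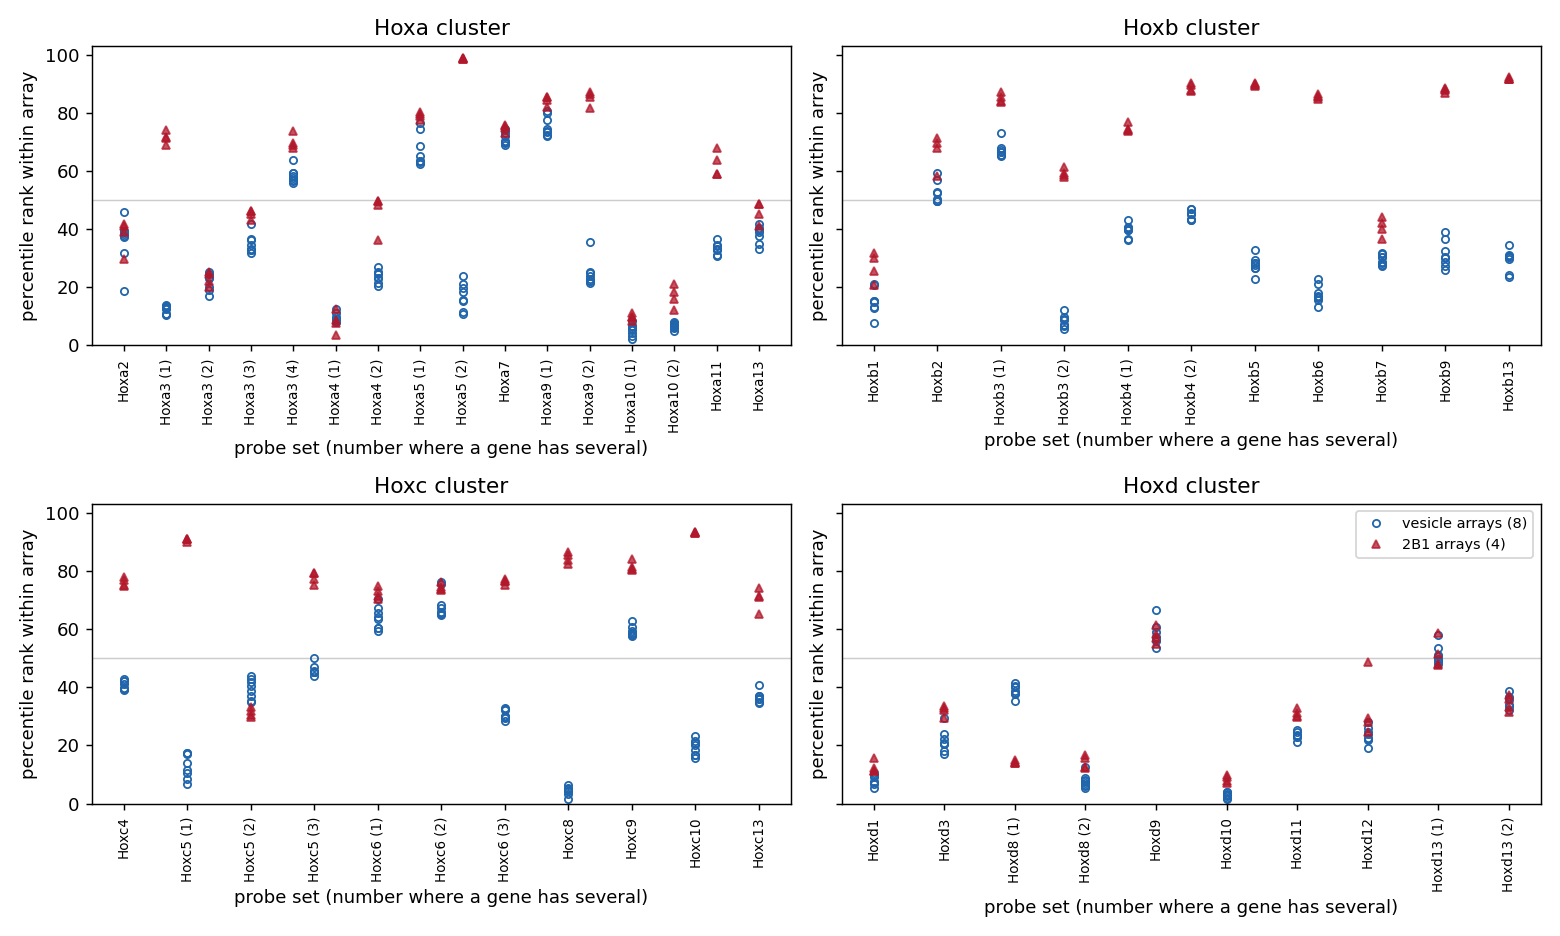
Percentile rank of each of the 48 Hox probe sets within each array (vertical axis, 0 to 100), by cluster and ordered by paralogue number, with open circles for the 8 vesicle arrays and filled triangles for the 4 2B1 arrays. In the Hoxa, Hoxb and Hoxc panels many triangles lie far above the circles, while in the Hoxd panel none of the 10 sets was apart upwards.

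The count differed by cluster. Higher ranks in 2B1 were seen for 9 of 16 Hoxa sets, 9 of 11 Hoxb sets, 8 of 11 Hoxc sets and 0 of 10 Hoxd sets. The Hoxd count was 1 of 10 against wild-type vesicles alone or without the second empty-vector culture (Hoxd3), and without the first Dlx5 culture (Hoxd12). The median rank moved from 29.0 to 54.2 for Hoxa, from 29.5 to 85.0 for Hoxb, from 39.3 to 76.3 for Hoxc and from 23.4 to 31.5 for Hoxd. All 7 measured Hoxc genes had a higher set, as did 7 of 9 Hoxb genes (all but Hoxb1 and Hoxb2) and 6 of 9 Hoxa genes (all but Hoxa2, Hoxa7 and Hoxa13). By position, 5 of 11 sets of paralogue groups 1 to 3 ranked higher, 13 of 20 sets of groups 4 to 8, and 8 of 17 sets of groups 9 to 13. These counts are descriptions of 48 sets that share arrays and, in 11 genes, a transcript.

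**Figure D2:**
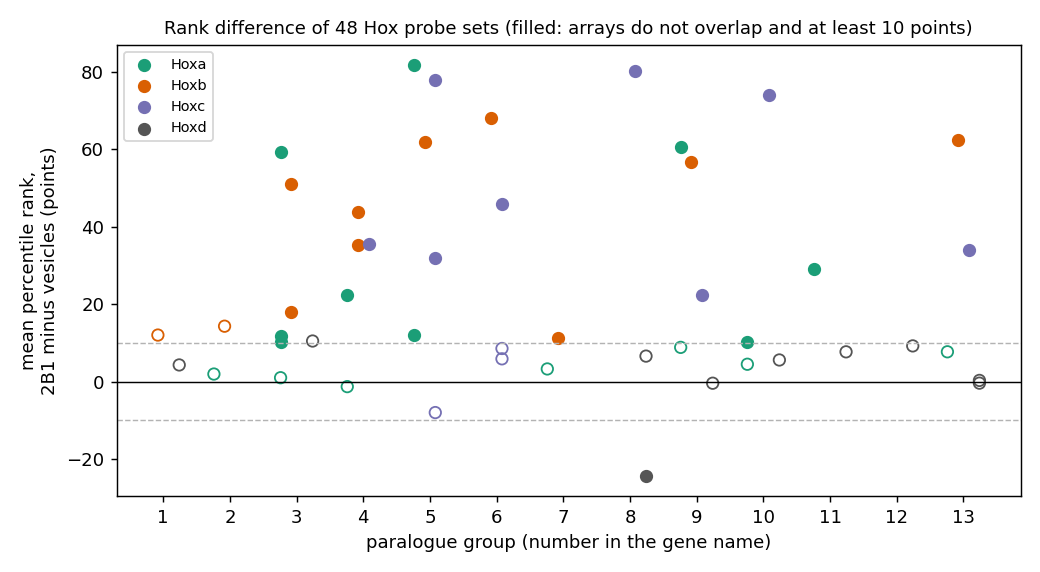
Difference in mean percentile rank (2B1 minus vesicles, vertical axis, in points) for the 48 Hox probe sets against the paralogue number of the gene, coloured by cluster. Filled points are sets whose arrays do not overlap and whose means differ by at least 10 points (dashed lines). Filled points above 0 occur among Hoxa, Hoxb and Hoxc sets, and the Hoxd sets lie near or below the dashed line at 10.

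Among the genes of the anterior end (groups 1 to 3), Hoxb1, Hoxb2 and Hoxd3 had mean ranks more than 10 points higher in 2B1, but missed the rule because 1 culture overlapped the highest vesicle array. Hoxb1, which marks a single hindbrain segment near the otic vesicle, ranked between 7.8 and 21.2 in vesicles (median 15) and at 20.8 to 31.7 in 2B1, a difference of 11.99 points. Hoxa2, which patterns the hindbrain and the second pharyngeal arch, had a mean rank of 36.0 in vesicles and 37.9 in 2B1. Hoxb2, a target of Hoxb1 in the hindbrain, lay between 49.6 and 59.2 in vesicles and between 58.3 and 71.4 in 2B1, a difference of 14.3 points. Hoxd3 lay between 17.02 and 29.4 in vesicles and between 29.3 and 33.5 in 2B1, a difference of 10.45 points. Each became apart when 1 culture was left out, which was the first Dlx5 culture for Hoxb1, the first empty-vector culture for Hoxb2 and the second for Hoxd3. Hoxd1 had mean ranks of 8.2 and 12.5 and was not apart.

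Hoxa3 and Hoxb3, which pattern the caudal hindbrain and the pharyngeal arches, did hold sets that ranked higher in 2B1. The Hoxb3 sets 1427605_at and 1456229_at had mean ranks of 67.2 and 8.3 in vesicles and 85.0 and 59.2 in 2B1. Of the 4 Hoxa3 sets, 1427433_s_at went from 10.6 to 14 in vesicles to 74.1 and 71.5 with Dlx5 and 68.9 and 71.6 with the empty vector. The sets 1431392_at and 1452421_at differed by 10.3 and 11.7 points, and 1429398_at, with mean ranks of 22.0 and 23.0, did not differ by the rule. The sets of 1 gene thus gave unlike differences.

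The central genes (groups 4 to 8), which pattern the neck and trunk, held the widest gaps. Hoxa5, a regulator of the cervical skeleton, trachea and lung, had the widest of all by its set 1448926_at. That set ranked between 11 and 23.8 in the 8 vesicle arrays (median 16.9), and at 98.8 and 98.8 with Dlx5 and 98.5 and 98.6 with the empty vector. Its log2 values were 3.34 to 4.16 in vesicles, and 12.64 and 12.65 with Dlx5 and 12.18 and 12.40 with the empty vector in 2B1. All 4 cultures thus held it among the brightest sets of the array, and its difference of 81.7 points was number 11 in size among the rises of all 34958 sets. The other Hoxa5 set, 1443803_x_at, was between 62.4 and 76.5 in vesicles and differed by 11.9 points. The suffix x_at marks sets in which some probes can bind other transcripts.

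Hoxc8, which patterns the thoracic skeleton and motor neurons, ranked between 1.6 and 6.2 in vesicles (median 4.5). In 2B1 it ranked at 85.6 and 86.4 with Dlx5 and at 82.4 and 83.9 with the empty vector, so a set among the dimmest of the vesicle arrays was among the brighter ones in every culture. The Hoxc5 set 1439885_at ranked between 6.6 and 17.3 in vesicles and at 91.0, 90.8, 90.0 and 91.1 in the 4 cultures. Its set 1456301_at also ranked higher (mean 45.9 and 77.7), whereas 1450832_at was lower by 8.02 points, with no overlap but short of 10 points. Hoxb5, which acts in enteric neural crest, went from a mean rank of 27.8 to 89.7. Hoxb6, a trunk gene, went from 17.6 to 85.6. In these central genes the 4 cultures lay within a few points of each other.

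The 2 sets of Hoxb4, known as a regulator of blood stem cell expansion, both ranked higher in 2B1. The set 1460379_at went from 44.9 to 88.8 and 1451761_at from 39.5 to 74.8. Hoxc4 went from 40.7 to 76.1. Hoxa4 had 1 set apart (1427354_at, 23.7 and 46.0) and 1 that was dim in both (1420226_x_at, 9.5 and 8.2). Hoxc6, a gene of the upper thorax, had 1 set apart (1427454_at, 30.6 and 76.3) and 2 that were not (1427361_at and 1427362_x_at, differing by 8.52 and 5.85 points). Hoxb7 differed by 11.2 points, just above the minimum. Hoxa7 ranked between 69.0 and 74.6 in vesicles and between 73.0 and 75.8 in 2B1, so it was comparatively bright in all 12 arrays.

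Posterior genes (groups 9 to 13), which in the embryo are active in the trunk, tail and distal limbs, were also among the brightest Hox sets of 2B1. Hoxc10, a gene of lumbar motor neurons and the hindlimb, ranked between 15.7 and 23.2 in vesicles (median 19.2). In the cultures it ranked at 92.9 and 93.0 with Dlx5 and 93.2 and 93.3 with the empty vector. Hoxb13, the most posterior Hoxb gene and a regulator of the prostate and tail, ranked between 23.6 and 34.6 in vesicles. In the cultures Hoxb13 ranked at 92.3, 91.7, 91.5 and 91.5. Hoxb9 went from a mean of 31.3 to 87.9, Hoxc9 from 59.2 to 81.6, Hoxc13, a regulator of hair keratin genes, from 36.5 to 70.4, and Hoxa11, a gene of the forearm and uterus, from 33.3 to 62.4. A hindlimb or tail gene and a cervical gene were thus bright in the same cultures.

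Hoxa9, a regulator of blood progenitors, showed how far 2 sets of a gene can differ. The set 1421579_at was the only Hox set above the 75th percentile in vesicles, with a mean of 75.5 (72.1 to 80.7), and it ranked at 84.3 in 2B1. The set 1455626_at had a mean of 24.8 in vesicles (21.3 to 35.5), and in 2B1 it ranked at 87.3 and 86.5 with Dlx5 and at 81.7 and 85.5 with the empty vector. Hoxa10 was dim throughout, with 1 set just above the minimum (10.1 points, 1446408_at) and 1 below it (4.46 points). Hoxa13, a gene of the hand, foot and genital tubercle, differed by 7.67 points and was not apart. Just outside the minimum lay the brighter Hoxa9 set (8.81 points), whose ranks did not overlap. Hoxd12 also fell short (9.19 points), and its ranks overlapped, with 19.2 to 28.1 in vesicles and 24.6 to 48.8 in 2B1.

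The Hoxd cluster, known for its part in limb and digit patterning, had no set that ranked higher in 2B1 by the rule over all arrays. Of its 8 genes Hoxd10 was the dimmest, with a mean rank of 2.9 in vesicles and 8.5 in 2B1. Hoxd9 had mean ranks of 58.3 and 57.9, and the 2 Hoxd13 sets had 51.1 and 51.4 (1422239_at) and 35.0 and 34.6 (1440626_at). Hoxd11 differed by 7.66 points. The ranks of Hoxd1, Hoxd10 and Hoxd11 were higher in 2B1 with no overlap, but fell short of 10 points. Hoxd8 gave the only Hox set that ranked lower in 2B1, 1431099_at, with 35.2 to 41.4 in vesicles and 14.4, 15.0, 14.1 and 14.0 in the cultures. Its other set, 1433638_s_at, was dim in both (7.8 and 14.3).

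Probe sets at the clusters that the rule leaves out were read in the same way. A set listed with both Hoxb8 and Hoxb7 went from a mean rank of 18.2 to 71.6. Of 2 sets listed with both Hoxd4 and Hoxd3, 1 fell in rank from 55.4 to 39.3 with no overlap and the other, with 43.5 and 32.9, overlapped. Gm15050, a non-coding transcript of the Hoxa cluster, went from 44.8 to 76.6, and 1 of 2 sets of Hoxa11os, which is antisense to Hoxa11, went from 12.3 to 26.0. By contrast, 1 of 2 sets of Hoxd3os1, which is antisense to Hoxd3, went from 33.1 to 13.6. Evx1 and Evx2, the even-skipped genes at the ends of the Hoxa and Hoxd clusters, were not apart.

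The stretches before the start sites of 4 of these genes are shown as examples, because some lie inside other Hox genes and others do not. They hold the 250 bases upstream of the start, from RefSeq on GRCm38.p6, written 5′ to 3′ along the gene with CG in capitals. The deposited values name no build. Windows of this kind were at hand for 22 Hox genes (24 windows), of which Hoxa6, Hoxb8 and Hoxd4 are not among the 33. The median count of CG was 12.5 in them and 6 over all 32851 windows. Hoxa5 and Hoxb4 ranked higher in 2B1, and their windows lie at chr6:52204588-52204837 (minus strand, within the spans of Hoxa3 and Hoxaas3) and chr11:96318017-96318266 (plus strand, within the span of Hoxb3). Hoxd10 and Hoxd13 were not apart, and theirs lie at chr2:74691641-74691890 and chr2:74667975-74668224 (plus strand, within no other gene). This pairing of rank and position did not hold among the other windows. Those of Hoxa10, with a set higher in 2B1, lie within no other gene, while that of Hoxd1, not apart, lies within Haglr.
Hoxa5: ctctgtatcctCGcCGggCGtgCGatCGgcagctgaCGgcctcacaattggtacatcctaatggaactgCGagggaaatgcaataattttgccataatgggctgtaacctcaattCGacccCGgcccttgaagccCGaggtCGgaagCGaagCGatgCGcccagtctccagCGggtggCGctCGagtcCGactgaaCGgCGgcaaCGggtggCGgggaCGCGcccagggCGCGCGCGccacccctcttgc
Hoxb4: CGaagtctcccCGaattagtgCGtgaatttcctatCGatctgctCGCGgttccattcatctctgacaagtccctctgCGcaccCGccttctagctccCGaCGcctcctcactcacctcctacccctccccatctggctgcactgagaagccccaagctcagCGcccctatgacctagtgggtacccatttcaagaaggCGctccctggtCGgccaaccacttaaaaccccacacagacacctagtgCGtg
Hoxd10: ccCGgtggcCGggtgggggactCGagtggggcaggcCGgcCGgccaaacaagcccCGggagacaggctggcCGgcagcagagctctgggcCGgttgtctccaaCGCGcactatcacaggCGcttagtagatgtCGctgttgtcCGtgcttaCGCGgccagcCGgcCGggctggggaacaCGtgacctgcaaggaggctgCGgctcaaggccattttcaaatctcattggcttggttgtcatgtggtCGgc
Hoxd13: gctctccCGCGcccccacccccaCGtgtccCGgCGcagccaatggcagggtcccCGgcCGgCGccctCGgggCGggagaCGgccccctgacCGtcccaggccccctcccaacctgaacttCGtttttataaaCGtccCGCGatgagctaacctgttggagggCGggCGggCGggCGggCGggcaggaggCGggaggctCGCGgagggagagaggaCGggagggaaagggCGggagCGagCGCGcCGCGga
The count of CG was 28 for Hoxa5, 14 for Hoxb4, 20 for Hoxd10 and 31 for Hoxd13, within a range of 2 to 35 over the 24 windows. On either strand CCAAT occurred in 14 of the 24 Hox windows and in 33.8% of all windows, and TATAAA in 4 of 24 and 12.4%. AGGTCA, a half-site of nuclear receptors, occurred in 6 of 24 and in 14% of all windows. TGATNNAT, a form of site that Pbx and Hox proteins share, occurred in 4 of 24 and 7.68%, and TTTATNG, a form bound by Cdx and posterior Hox proteins, in 2 of 24 and 9.81%. These are counts of letters in short windows.

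The samples were set against markers of the tissues they could hold. Over all sets, 16.3% ranked higher in 2B1 and 16.2% lower by the same rule. Of 13 measured otic epithelium markers, 11 ranked lower in 2B1 and 0 higher. Their mean rank was 76.5 to 80.8 over the vesicle arrays and 39.4 to 40.1 over the 2B1 arrays. Tbx1, Gbx2 and Hmx3, transcription factor genes of the early otic vesicle, had mean ranks of 90.0, 79.4 and 61.0 in vesicles and 8.8, 5.1 and 1.4 in 2B1. Fbxo2 (92.4 and 92.4) and Epcam (81.1 and 73.0) were not apart and stayed bright in 2B1. Of the 13 markers, 9 had a mean rank below 50 in 2B1 and 0 did in vesicles. Most of them were thus dim in 2B1, which does not test whether the line came from the otic vesicle. Of 15 mesenchyme markers 5 ranked higher and 5 lower (mean rank 47.2 to 57.3 in vesicles and 52.2 to 55.9 in 2B1), with Col1a1 at 62.5 and 99.5 and Twist1 at 70.8 and 93.3, but Prrx2 at 70.6 and 36.9 and Lum at 67.2 and 25.3. Of 11 hindbrain markers 3 ranked higher and 1 lower (36.8 to 38.8 and 34.4 to 37.3), and of 5 neural crest markers 3 and 1 (49.5 to 52.7 and 57.8 to 59.0). None of 6 neuron and 7 endothelium markers ranked higher (5 and 4 lower), and of 7 blood markers 1 ranked higher and 6 lower. The part of cell type in the Hox ranks was not tested, and in pooled tissue fewer cells of a type and less RNA per cell cannot be told apart.

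Labelled-null and wild-type vesicles were compared to see which genes depend on Dlx5, using limma on log2 values with Benjamini-Hochberg adjustment over 13645 genes. A gene was represented by its brightest probe set, and the dimmest 25% of genes were left out, which removed 21 of the 33 Hox genes and left Hoxa3, Hoxa5, Hoxa7, Hoxa9, Hoxb2, Hoxb3, Hoxb4, Hoxc5, Hoxc6, Hoxc9, Hoxd9 and Hoxd13. The 12 tested genes are those bright enough to pass, and nothing is said of the others. For Hoxa3, Hoxa5, Hoxa9, Hoxb3, Hoxc5 and Hoxc6 the tested set was not the set with the widest rank gap to 2B1. That set was dimmer in vesicles and was not tested there. The tested sets of Hoxa5 (1443803_x_at) and Hoxc6 (1427362_x_at) have the suffix x_at. Over both stages 0 of the 12 passed the threshold of 0.05 in limma, where 0.022% of all genes did (3), and 0 had an unadjusted p under 0.05, where 4.10% did. The lowest adjusted p was 0.999.

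The Hox differences between genotypes were small. Their median was 0.08 on the log2 scale, with 11 positive and 1 negative, against -0.01 over all genes, of which 46.7% were positive. The split stayed 11 and 1 in both rescaled runs (medians 0.10 and 0.08). It also did without the first replicates at E10 (median 0.11). Hoxd9, which acts in the limb and trunk, differed most at 0.26 (SE 0.15). At E10 the wild-type arrays read 5.93 and 6.06 and the labelled-null arrays 6.66 and 5.97, and at E10.5 they read 6.03 and 6.0 against 6.17 and 6.27. Its labelled-null values at E10 spread over the wild-type values, and the highest of them was on an array of narrow interquartile range. Hoxd13, a digit gene, differed by 0.18 (SE 0.12).

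At E10 alone 0 of 12 passed in limma, as did 0% of all genes (451, or 3.31%, at an unadjusted p under 0.05, with 0 Hox genes among them). At E10.5 0 of 12 passed, against 0.00733% of all genes (1), with 0 Hox genes and 2.95% of all genes at an unadjusted p under 0.05. The Hox median was 0.04 at E10 and 0.16 at E10.5, against 0.01 and -0.04 over all genes. At E10.5 the groups did not overlap for 8 of the 12 (Hoxa3, Hoxa7, Hoxa9, Hoxb2, Hoxc5, Hoxc6, Hoxd9 and Hoxd13), and all 8 were higher in labelled-null, where 16.9% of all genes were higher and 28.2% lower with no overlap. All 6 blood markers tested were also higher in labelled-null there (median 1.32, 4 at an unadjusted p under 0.05 in limma and 0 after adjustment), and 9 of 11 mesenchyme markers were lower (median -0.27, 3 and 0), and their part in the Hox values was not tested. Of all 12 Hox genes at E10.5 10 were positive, where 40.9% of all genes were. Hoxd13 was the most so, as the wild-type arrays read 5.69 and 5.55 and the labelled-null arrays 5.84 and 6.11 (0.36, SE 0.16, limma adjusted p = 1.00). The differences between the stages in this effect (interaction) passed for 0 of 12 Hox genes and 0% of all genes in limma (1.97% of all genes and 0 Hox genes at an unadjusted p under 0.05). At E10 9 of the 12 Hox genes were positive and 3 negative, where 50.5% of all genes were positive. The split was the same with quantile normalization repeated or arrays scaled to 1 median and interquartile range. With the first replicates of both genotypes at E10, of narrow spread, left out, 4 Hox genes were positive and 8 negative at E10 (median -0.06). This run leaves 1 array of each genotype at E10, so it cannot show what the direction there rests on. The second labelled-null array at E10.5 was also narrow and was kept in that run. It read higher than the first for 39 of 48 Hox sets and lower for 6. The first read higher than the second for 53% of all sets and for 36.1% of sets below the 50th percentile. In the 8 genes without overlap at E10.5, the first labelled-null array also lay above both wild-type arrays. How far the E10.5 direction rests on the second array was not tested.

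**Figure D3:**
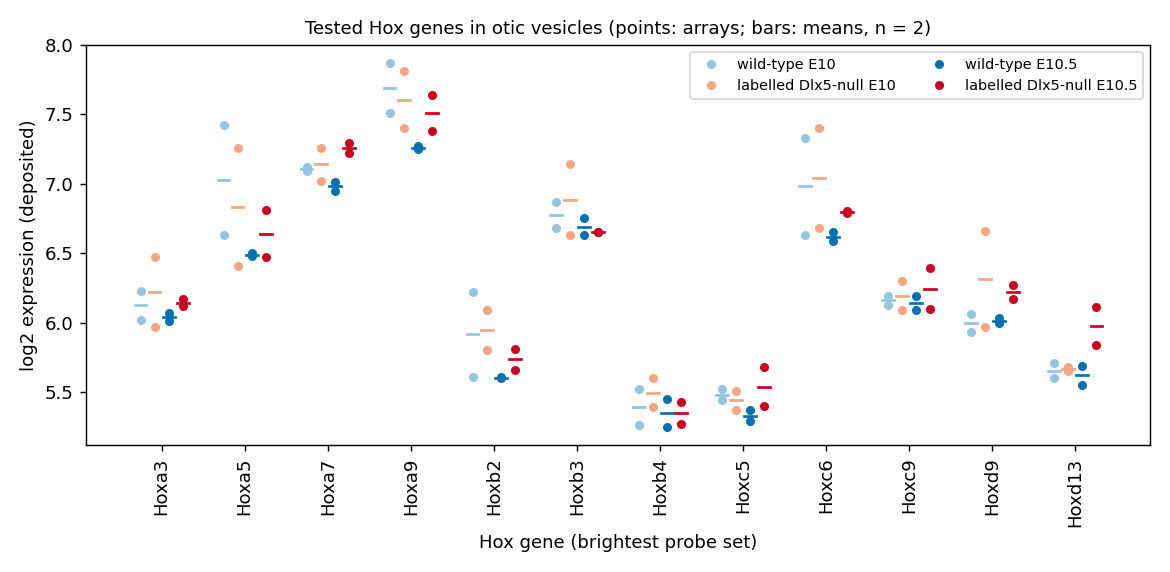
Deposited log2 values of the 12 Hox genes bright enough to be tested in vesicles (brightest probe set of each), with a point for each array, a bar for the mean of the 2 arrays of a group, and colours for genotype and stage. Over both stages the genotypes overlap in all 12 genes, at E10.5 alone they do not overlap in 8, and at E10 the 2 arrays of a group lie far apart for Hoxa5 and Hoxc6.

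From E10 to E10.5, 15.8% of all genes passed in limma over both genotypes (2158) and 0 of the 12 Hox genes did, with 34.0% of all genes and 0 Hox genes at an unadjusted p under 0.05. The lowest adjusted p among the Hox genes was 0.249, for Hoxa9 (-0.26, SE 0.15). In wild-type vesicles 2.17% of all genes (296) and 0 Hox genes passed, and in labelled-null vesicles 0.022% (3) and 0 Hox genes, with 22.5% and 15.3% of all genes and 0 Hox genes at an unadjusted p under 0.05. The median Hox difference was -0.09 over both genotypes (2 positive, 10 negative), against 0.04 over all genes, of which 55% were positive. Hoxa5, by its tested set 1443803_x_at, differed most in wild-type, with 7.42 and 6.63 at E10 and 6.48 and 6.50 at E10.5 (-0.54, SE 0.35, limma adjusted p = 0.390). The first of the E10 arrays stood well above the other 3 wild-type arrays, and without the first E10 wild-type replicate its difference was -0.14. The dimmer Hoxa5 set 1448926_at went the other way in wild-type, with 3.82 and 3.62 at E10 and 4.01 and 4.16 at E10.5.

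The stage direction was read again with arrays rescaled and with the arrays of narrow spread at E10 left out. The 48 Hox sets were higher on the first than on the second replicate in 38 cases for wild-type E10 and in 40 for labelled-null E10. Over all sets 47.8% and 49.1% were, and among sets below the 50th percentile 66.5% and 65.0% were. With both first replicates at E10 left out, 9 of the 12 Hox genes were positive and 3 negative over both genotypes, with a median of 0.05. With quantile normalization repeated, or with arrays scaled to 1 median and interquartile range, 3 were positive and 9 negative (medians -0.07 and -0.05). The direction thus held when the spread was made equal and turned when those arrays were left out. No stage direction is therefore given for the Hox genes.

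The partners and regulators of the Hox genes were measured in the same fits. Of 8 Pbx, Meis and Pknox genes tested, 0 passed between labelled-null and wild-type in limma over both stages (0 by an unadjusted p below 0.05), and with stage 2 rose and 1 fell, where 9.28% of all genes rose and 6.54% fell. Meis3 rose by 1.15 (SE 0.12, limma adjusted p = 0.00299), from 9.70, 10.00, 9.91 and 10.05 at E10 to 11.11, 11.16, 11.00 and 10.99 at E10.5, and the groups did not overlap. Pbx2 rose by 0.53 (limma adjusted p = 0.0235) and Meis2 fell by 0.83 (0.0158). The Pbx2 call was lost without the first labelled-null E10 array (0.0598) or any one of the 4 E10.5 arrays (0.0620 to 0.0901). It was also lost with arrays scaled to 1 spread (0.29, adjusted p = 0.231). The Meis2 call was lost without the first wild-type (0.0644) or the second labelled-null E10.5 array (0.0516), and with the mean over its probe sets (-0.28, 0.144).

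Of 33 regulators tested, 0 passed between genotypes in limma over both stages (1 by an unadjusted p below 0.05, where 4.10% of all genes were). With stage 9 regulators rose and 6 fell, against the same 9.28% and 6.54% of all genes. Markers of other cell types moved with stage too. All 6 blood markers tested rose (median 2.15), as did 4 of 11 mesenchyme markers (median 0.59), 4 of 6 otic neuron markers (1 fell) and 2 of 5 endothelium markers, and their part in the changes of partners and regulators was not tested. The regulators with the largest changes were Aldh1a2 (2.33, limma adjusted p = 0.0375) and Aldh1a3 (2.09, 0.00545), both for retinoic acid synthesis, Pcgf2 (1.06, 0.0268), a Polycomb gene, and Rxrg (1.06, 0.00474), a retinoid receptor gene. The calls of Aldh1a2 and Pcgf2 were lost without the first labelled-null E10 array (adjusted p = 0.103 and 0.0763) or any one E10.5 array (0.0768 to 0.118 and 0.0541 to 0.0980). Those of Meis3, Aldh1a3 and Rxrg held in each of these runs. In wild-type alone, Meis3 (1.28), Rxrg (1.28) and Aldh1a3 (2.30) passed (limma adjusted p = 0.0293, 0.0302 and 0.0494), and none of the 3 did without the first E10 wild-type array (0.109, 0.120 and 0.142) or without any one E10.5 array. By rank, 0 of 8 Hox partners were higher in 2B1 than in vesicles and 1 was lower (Pbx4), and of 37 regulators 7 were higher and 5 lower, near the 16.3% and 16.2% of all sets.

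The 2B1 cultures labelled as transfected with Dlx5 were compared with those given the empty vector. The Dlx5 set itself hardly differed between them (5.14 and 4.80 against 4.66 and 4.79), so these values do not show how far the 2 arms differed in Dlx5. Here 24 of the 33 Hox genes were bright enough to be tested, among 13647 genes. In limma 0 of 24 passed, as did 0% of all genes. At an unadjusted p under 0.05, 4 Hox genes were higher, of 24, against 9.71% of all genes, and 0 were lower, against 3.19%. The lowest adjusted p was 0.377.

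The 4 were Hoxa9, Hoxb4, Hoxb2 and Hoxc8, and they also had the largest differences. Hoxa9 (1455626_at) read 8.52 and 8.36 with Dlx5 and 7.44 and 8.22 with the empty vector (0.61, SE 0.26, limma adjusted p = 0.384). Hoxb4 read 9.05 and 8.90 against 8.27 and 8.52 (0.58, SE 0.17, limma adjusted p = 0.377). Hoxb2 read 6.80 and 6.64 against 5.83 and 6.51 (0.55, SE 0.24, limma adjusted p = 0.385). Hoxc8 read 8.28 and 8.35 against 7.52 and 8.01 (0.55, SE 0.20, limma adjusted p = 0.382). The groups did not overlap in any of the 4 genes. The share of all genes without overlap was not counted in 2B1, so no weight is put on this. In all 4 genes the lowest value was that of the first empty-vector culture, whose array had the narrow interquartile range. Without it the differences of Hoxa9, Hoxb4, Hoxb2 and Hoxc8 were 0.22, 0.46, 0.21 and 0.30, and without the second empty-vector culture 1.00, 0.70, 0.89 and 0.80 (limma adjusted p = 0.0501 to 0.0531). Either fit leaves 1 empty-vector culture, so the spread comes from the 2 Dlx5 cultures and the lone culture is assumed to vary like them.

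Over the 24 genes the median difference was 0.19, with 17 positive and 7 negative, against 0.04 over all genes, of which 56.3% were positive. With arrays scaled to 1 median and interquartile range the median was 0.01 (13 positive, 11 negative), and without the first empty-vector culture it was 0.06 (13 positive, 12 negative, of 25 tested). Hoxb7 had the largest negative difference, with 4.64 and 4.85 with Dlx5 and 5.04 and 5.08 with the empty vector (-0.32, SE 0.16). Hoxc10, among the brightest Hox genes of these cells, read 9.50 and 9.76 in empty-vector cultures and 9.66 in both Dlx5 cultures (0.03, SE 0.17). Of the partners and regulators 0 of 8 and 0 of 33 passed in this limma comparison. At an unadjusted p under 0.05 there were 1 and 7, where 12.9% of all genes were in either direction. The high ranks of Hoxa5, Hoxc8, Hoxc10 and Hoxb13 were thus present in cells with the empty vector as well as in those with Dlx5.

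**Figure D4:**
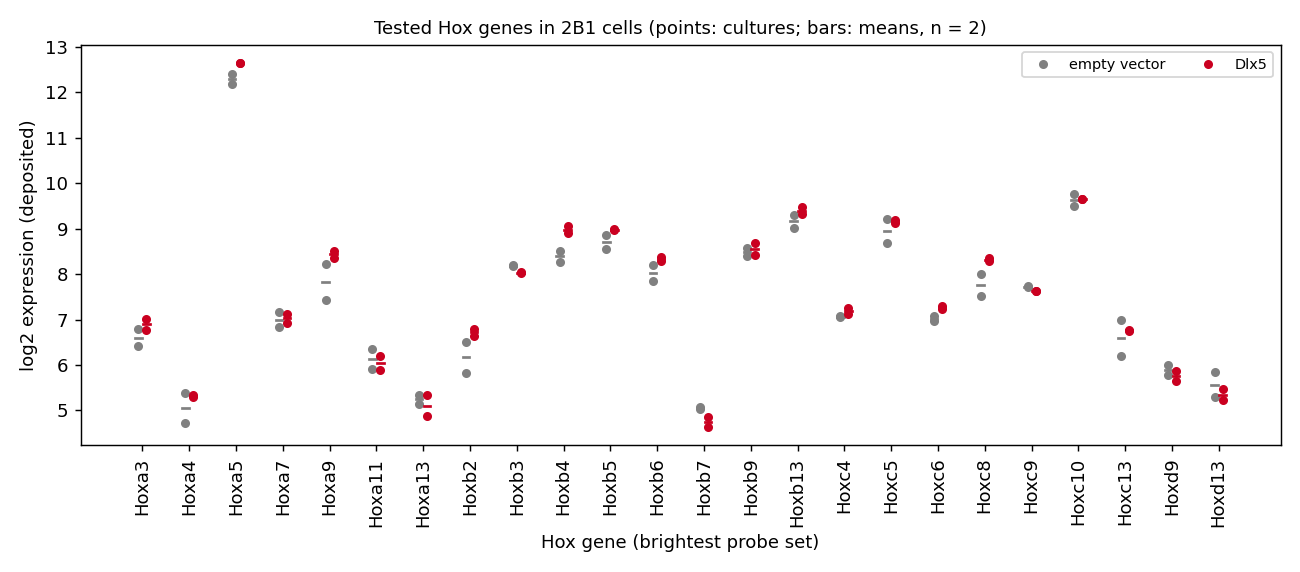
Deposited log2 values of the 24 Hox genes bright enough to be tested in 2B1 cells (brightest probe set of each), with a point for each culture and a bar for the mean of 2 cultures, in grey for the empty vector and red for Dlx5. Grey and red points lie close together for most genes. Hoxa9, Hoxb2, Hoxb4 and Hoxc8 have 1 empty-vector culture below the other 3 cultures.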

How the data were processed

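RNA of 12 samples was hybridised to Affymetrix arrays, 1 per sample. The deposited table holds log2 values of 45101 probe sets, made by the authors with RMA in Affymetrix Expression Console, per the submitters' processing notes. Versions were not given in the sources used here. Differences of dim sets are compressed by RMA. Scanner files and detection calls were not used, so signal over background is unknown. Groups came from the sample titles. No arrays were alike (at most 2.78% equal values in a pair).

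Gene tests used the 34958 sets that name 1 gene and left out 932 that name more and 9211 that name no gene. Symbols were updated through the RefSeq table of GRCm38.p6. The lmFit and eBayes functions of limma 3.58.1 (R 4.3.3) were run on their brightest set in the arrays of the fit, so that the set of a gene can differ between vesicles and 2B1. Stage or genotype was a covariate in the effects over both. Contrasts of vesicle groups came from 4 group means and share arrays. Scripts were tested on simulated data. Alternatives were other filters, gene summaries, scalings, a robust trend, single probe sets, a replicate block and each array left out. Between genotypes over both stages, the Eif2s3y level was also tried as a covariate.

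Named genes were Hox genes past the threshold, up to 6 with groups that did not overlap and a log2 difference of at least 0.5, the 10 widest rank gaps per direction, sets above the 75th percentile, and up to 4 regulators per list past the threshold. Other members were named to account for the cluster, chosen after their values were seen. The members and lists were chosen with earlier results of these data known.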

Additional observations from a re-analysis of the deposited data

How the results depend on the processing

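The count of Hox genes past the threshold was 0 in each of the 8 limma comparisons under every alternative run. The count of Hox sets ranked higher in 2B1 was 26 as reported, 19 of 33 with 1 set per gene, 20 with a minimum of 20 points, 27 against wild-type vesicles alone and 25 to 27 without each 2B1 array in turn, and the count ranked lower was 1 throughout. Counts over all genes moved more. They were 3 (0 to 20) between genotypes, 0 (0 to 18) at E10, 1 (0 to 37) at E10.5, 0 (0 to 3) for the interaction, 2158 (470 to 3800) for stage, 296 (0 to 1689) for stage in wild-type, 3 (0 to 289) in labelled-null and 0 (0 to 258) in 2B1. The cause was not tested.

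Replicate numbers were not taken to pair the samples, since the correlation of deviations was 0.66 for the E10 groups, 0.02 for the E10.5 groups, -0.05 and -0.37 between stages and -0.10 in 2B1. With the replicate block 0 Hox genes passed in any comparison, and the counts over all genes were 2, 0, 3, 0, 2259, 115, 0 and 258 in the order above. With the numbers crossed between the labelled-null stages 81 genes passed and 0 Hox genes. With 2 arrays a group and no detection calls, small changes of dim Hox genes could not be resolved.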
